A study of Rattus norvegicus with 2 samples.

Results

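The 9 genes described here encode proteins that mark slow-twitch (type I) muscle fibres or are abundant in them. They are the slow troponins Tnnc1, Tnni1 and Tnnt1, the slow myosin chains Myh7, Myl2 and Myl3, the slow tropomyosin Tpm3, myoglobin (Mb) and carbonic anhydrase 3 (Car3). They were proposed with earlier results of these data known, so counts over them describe the list and are no test. Every probe set of the array annotated to 1 of these gene symbols alone was taken. This gave 24 probe sets for 9 genes out of 14217 genes named on the array. The adductor muscle of the inner thigh was compared between the left hindlimb of male Lewis rats, stimulated with 100 pricks of a 0.14 mm steel needle within a 10 mm by 10 mm square, and the unpricked right hindlimb. Tissue was taken 24 hours after the stimulation, from rats of 275 g body weight, and the labels give neither age nor the number of animals. Each limb was represented by 1 Affymetrix array. With 1 sample a group there is no replicate error and no test, and "higher" and "lower" compare just these samples.

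Muscle contracts when calcium binds troponin C, which releases the inhibition by troponin I and lets tropomyosin, anchored through troponin T, move away from the myosin-binding sites of actin. Each of these proteins exists in slow and fast forms made from separate genes, and a fibre's set of forms sets its speed and calcium sensitivity. Slow fibres rely on oxidative metabolism and use the heavy chain of Myh7 with the light chains of Myl2 and Myl3, forms that the heart ventricle also makes.

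Both samples had the transcripts of skeletal muscle in abundance: creatine kinase (Ckm) gave a signal of 12064 in the stimulated and 16392 in the control limb, and desmin (Des) 7316 and 8359.8. The heart-specific genes Myh6, Myl7 and Tnni3 lay below the signal floor of 19.8 on both arrays, and Nppa (23.1 against 4.89) and Nppb (25.1 against 15.8) were close to it. The floor is the median of all signals, and any signal under it was set to it for the log2 ratio. A fold is written "at least" where 1 array lay under it. The only error available is the spread between probe sets of the same gene, with an SD of 0.31 on the log2 scale (1.24-fold) for a single probe set, over 2174 genes. It leaves out the variation between limbs and animals. All 18 probe sets of the hybridisation spike-ins were lower in the stimulated sample (median log2 ratio -0.38). Scaling to them moved the median of all genes from 0.019 to 0.39, so directions are relative to the median gene.

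Of the 9 genes, 5 were higher by 2-fold or more in the stimulated limb and 0 were lower by as much. Over all 9956 measured genes these shares were 1.43% higher and 1.43% lower. The 5 were all 3 slow troponins, the regulatory light chain Myl2 and the heavy chain Myh7. Of these, 3 (Tnnc1, Tnni1 and Myl2) reached the floor in both limbs. Tnnt1 and Myh7 had control signals under it, so they counted as measured only through the stimulated limb. The other 4 of the 9 genes lay within 2-fold, with Tpm3 and Myl3 slightly above 0 and Mb and Car3 below it. The median log2 ratio was 1.60 over the 9 genes and 0.019 over all measured genes. The 1.60 is the value of Myh7, a lower bound set by the floor. In muscle pieces, a larger share of slow fibres and more slow transcript per fibre cannot be told apart.

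**Figure D1:**
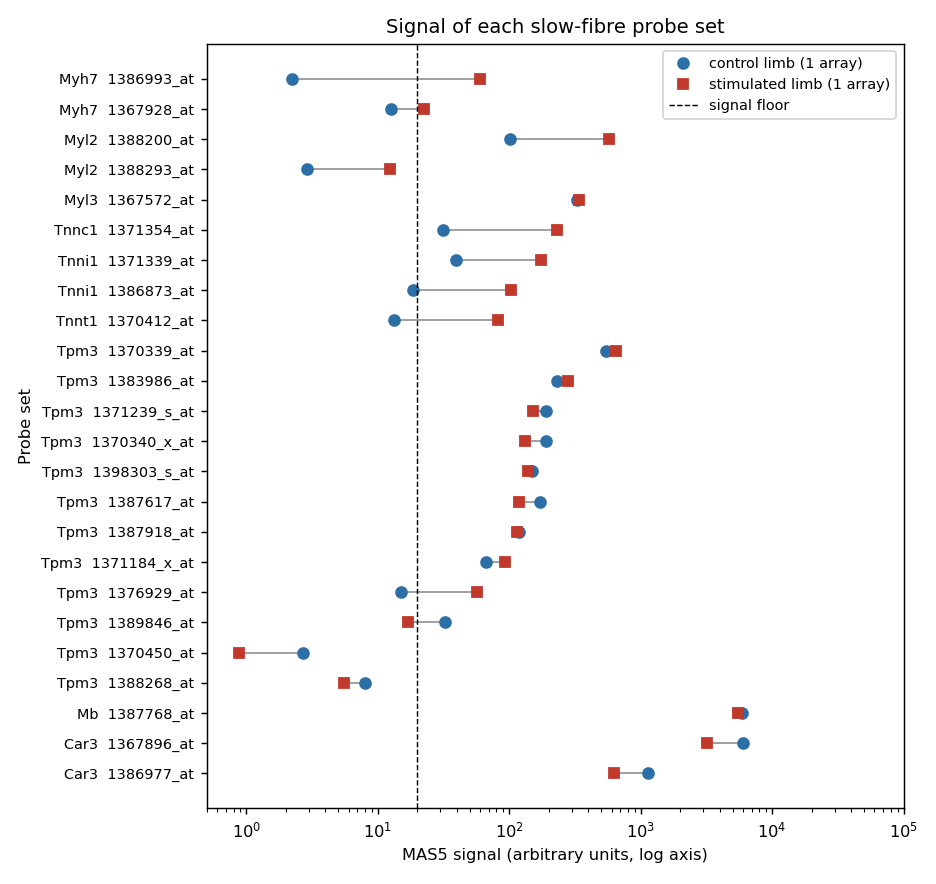
MAS5 signal (log axis) of each of the 24 probe sets of the 9 genes in the control limb (circles) and the stimulated limb (squares), 1 array each, with the signal floor of 19.8 as a dashed line. The wide gaps with the stimulated limb on the right belong to the 3 slow troponins, Myl2, Myh7 and the Tpm3 probe set 1376929_at, while Myl3 and Mb nearly coincide and both Car3 probe sets have the control limb on the right.

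Tnnc1 (Entrez gene 290561), the troponin C of slow and cardiac muscle, had a signal of 232 in the stimulated and 31.4 in the control limb. This 7.38-fold difference (log2 ratio 2.88) was the largest among the members that reached the floor in both limbs, and held rank 5 of 9956 genes from the top with the floor at 19.8. Tnni1 (Entrez gene 29388), the slow inhibitory subunit, was read by 2 probe sets. The brighter gave 176 against 39.3, 4.49-fold higher, and the second 103 against 18.6, at least 5.20-fold higher. Both pointed the same way, with a log2 ratio of 2.17 on the first and a lower bound of 2.38 on the second. Tnnt1 (Entrez gene 171409), the slow tropomyosin-binding subunit, gave 82.2 against 13.3 and was at least 4.16-fold higher (log2 ratio of at least 2.06). All 3 subunits of the slow troponin complex were thus far above the probe set spread in the same direction, although Tnnt1 and the second Tnni1 probe set had a control signal under the floor.

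The slow myosin genes did not share 1 difference. Myl2 (Entrez gene 363925), whose light chain is phosphorylated to tune force, gave 572 in the stimulated and 101 in the control limb, 5.68-fold higher (log2 ratio 2.51, rank 11). Its second probe set was under the floor on both arrays, at 12.4 and 2.92. Myh7 (Entrez gene 29557), the motor protein itself, gave 60.0 against 2.22 on probe set 1386993_at, at least 3.04-fold higher (log2 ratio of at least 1.60). The other Myh7 probe set, 1367928_at, gave 22.6 against 12.6, at least 1.14-fold higher. That probe set was barely above the floor on 1 array, and the median of both, 0.90, falls short of 2-fold. Myl3 (Entrez gene 24585), the essential light chain of the same slow myosin, gave 341 against 326, 1.05-fold and well within the probe set SD. Of the 2 light chains of slow myosin, the regulatory one was thus several-fold higher, while the essential one had like signals in both limbs.

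The plot of all genes sets these values in context. Of the genes past 2-fold, those that reached the floor in both limbs held ranks 5 (Tnnc1), 11 (Myl2) and 14 (Tnni1) of 9956. Tnnc1 at 2.88 and Myl2 at 2.51 differ by less than the SD of 0.44 for the difference of 2 probe sets, and so do Myl2 and Tnni1 at 2.17. Tnnt1 and Myh7 have no settled place in this order, since their ratios are lower bounds set by the floor. With the floor at the 25th percentile of all signals (5.78), Myh7 was at 3.38 and Tnnt1 at 2.62, both above Myl2 and Tnni1. Myl3 stood at rank 4445 and Mb at 6410, in the middle of all genes. Car3 was rank 184 from the bottom.

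**Figure D2:**
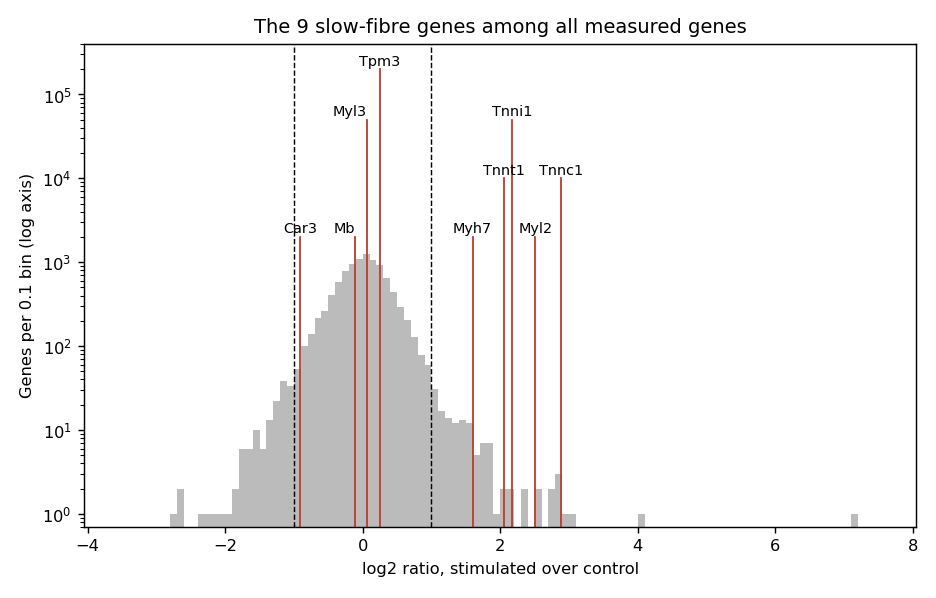
Number of genes (log axis) in bins of 0.1 of the log2 ratio of stimulated over control, for all 9956 measured genes (grey), with the log2 ratio of each of the 9 genes as a vertical line whose height carries no value. Dashed lines mark 2-fold; Tnnc1, Myl2, Tnni1, Tnnt1 and Myh7 lie to the right of the upper one and Car3, at -0.91, just inside the lower one.

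The genes past 2-fold were also those with low control signals. Among them the highest control signal was 101 (Myl2), whereas the lowest among the other 4 was 326 (Myl3). Across the array, 1.73% of the 6523 genes with a control signal under 150 and 0.738% of the 1898 genes at 300 or more were at least 2-fold higher, bounds that were set after the values were seen. The part of the control signal in the difference between the members was not tested.

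Tpm3 (Entrez gene 117557) encodes the slow alpha-tropomyosin of muscle and, through other promoters and exons, tropomyosins of the cytoskeleton in most cells. It was read by 12 probe sets, of which 10 reached the floor on at least 1 array. Of these 10, 4 had log2 ratios above 0 and 6 below, with a median of -0.072. The brightest, 1370339_at, gave 648 in the stimulated and 543 in the control limb, 1.19-fold higher, and 1383986_at gave 279 and 229.9, 1.21-fold higher. On the other side, 1370340_x_at gave 132 and 192, 1.46-fold lower, and 1387617_at gave 118 and 171, 1.45-fold lower. Both limbs thus had Tpm3 signal at similar levels on the brighter probe sets, and which limb was higher depended on the probe set.

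One Tpm3 probe set stood apart. On 1376929_at the stimulated limb gave 56.9 and the control limb 14.9, at least 2.88-fold higher (log2 ratio 1.53), the only 1 of the 10 past 2-fold. The dim probe set 1389846_at went the other way, with 16.9 under the floor in the stimulated and 32.3 in the control limb, at least 1.63-fold lower. The 8 that reached the floor in both limbs ranged from -0.54 to 0.47 with an SD of 0.38, close to the 0.31 of probe sets in general. The sources used here do not say which Tpm3 transcripts each probe set reads, so 1376929_at cannot be assigned to the muscle or the cytoskeletal form. Counting probe sets instead of genes, 7 of the 21 measured ones of the 9 genes were higher by 2-fold or more, against 1.24% of all 16644. None was lower by as much, against 1.78%. This count is not independent of the count of genes, and both Tnni1 probe sets are in it. Its probe sets of Tnnt1 and Myh7, the second of Tnni1 and 1376929_at were measured only through the stimulated limb.

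Markers of non-muscle cells, which are known to make cytoskeletal Tpm3 transcripts, were read on the same arrays. All 10 macrophage markers measured were above 0 in the stimulated limb, with a summed signal of 10211 against 1944. Of these, 7 were at least 2-fold higher, against 1.43% of all genes. Cd14 (286 against 270.3) and Cd163 (84.0 against 78.9) were within the probe set SD of 0, and Csf1r was 1.49-fold higher. The sum came in large part from Gpnmb (3165 against 188) and Spp1 (osteopontin, 2847 against 12.7). The control signal of Spp1 was under the floor. Smooth muscle and pericyte markers were mostly below 0, in 7 of 10, with a summed signal of 1468 against 2121. Only 1 was past 2-fold, against 1.43% of all genes lower by as much. It was Acta2, the smooth muscle actin, at 339.7 against 775, which made up much of the difference in the sum. The 3 above 0 were Smtn (297 against 219.5, with a dimmer probe set below 0), Lmod1 (36.6 against 27.2) and Cspg4 (23.3 against 18.2, under the floor). The part of these cells in the Tpm3 signals was not tested.

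Myoglobin and Car3, which are soluble proteins and not part of the filaments, were bright in both limbs. Mb (Entrez gene 59108), the oxygen-binding haem protein of oxidative fibres, gave 5505 in the stimulated and 5935 in the control limb, 1.08-fold lower and within the probe set SD. With spike-in scaling its log2 ratio was 0.28, against 0.39 for the median gene. The 18 measured oxidative and globin genes set beside it had a median log2 ratio of -0.10, with 13 within the probe set SD of 0 and none past 2-fold. Examples were the muscle cytochrome oxidase subunit Cox6a2 (6559 against 7576), citrate synthase (Cs, 1816 against 2018, with dimmer probe sets at log2 ratios of -0.56, -0.34 and a lower bound of 0.14) and Fabp3, the fatty acid carrier of heart and slow muscle (1449 against 1651). Furthest from 0 were cytoglobin (Cygb) at -0.58, the fatty acid transporter Cd36 at -0.52, the cytochrome oxidase subunit Cox7a1 at 0.52 and the succinate dehydrogenase subunit Sdha at -0.40.

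Car3 (Entrez gene 54232), a carbon dioxide hydratase of low activity that is abundant in slow fibres and in fat cells, was the 1 member clearly lower. Its probe sets gave 3207 against 6023, 1.88-fold lower, and 624 against 1127, 1.81-fold lower. The log2 ratios of -0.91 and -0.85 differed by only 0.057, and each was 2.73 or more probe set SDs below 0, though under 2-fold. None of the 5 other carbonic anhydrases measured was past 2-fold, and the log2 ratios of their brightest probe sets lay between -0.26 (Car14, a membrane-bound form) and -0.021 (Car4). A dimmer probe set of Car11 was 1.59-fold lower. Car3 therefore went the opposite way from the slow troponins.

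Some markers of fat cells were lower along with Car3. Of 8 measured adipocyte markers, 6 lay below 0 and 2 above. In all, 4 were lower by 2-fold or more and 0 higher by as much, against 1.43% of all genes in each direction, with a summed signal over the list of 1966 against 3642. Cfd (adipsin) gave 395 against 1683, Adipoq (adiponectin) 58.7 against 199, and Plin1 (perilipin) 15.8, under the floor, against 63.8. Lep (leptin) lay under the floor in both limbs, and Fabp4, at 819 against 1000.2, was 1.22-fold lower. The 2 above 0 were Lpl (lipoprotein lipase), at 601 against 579.8, and Cidea, a lipid droplet protein, at 39.1 against 33.8. The part of fat cells in the Car3 difference was not tested.

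RefSeq start-site windows (build GRCr8, from 250 bases before to 50 after an annotated start) were at hand for 6 of the 9 genes and are shown for a pair of genes past 2-fold, Tnnt1 and Tnni1, and a pair within it, Myl3 and Mb. The windows were searched on both strands for the E box CANNTG, bound by MyoD-type factors, for the MCAT element CATTCC, bound by TEAD factors, and for the MEF2 and CArG box (serum response factor) consensus motifs. Capitals mark every match. None of the 4 motifs overlapped another in these windows.
Tnnt1, chr1:78348785-78349084, plus strand: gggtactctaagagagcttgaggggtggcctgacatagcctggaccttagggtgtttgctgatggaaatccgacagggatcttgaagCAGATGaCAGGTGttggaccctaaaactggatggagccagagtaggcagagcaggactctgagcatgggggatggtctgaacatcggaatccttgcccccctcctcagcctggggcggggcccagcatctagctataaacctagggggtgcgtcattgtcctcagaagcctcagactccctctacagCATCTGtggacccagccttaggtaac
Tnni1, chr13:49781279-49781578, plus strand: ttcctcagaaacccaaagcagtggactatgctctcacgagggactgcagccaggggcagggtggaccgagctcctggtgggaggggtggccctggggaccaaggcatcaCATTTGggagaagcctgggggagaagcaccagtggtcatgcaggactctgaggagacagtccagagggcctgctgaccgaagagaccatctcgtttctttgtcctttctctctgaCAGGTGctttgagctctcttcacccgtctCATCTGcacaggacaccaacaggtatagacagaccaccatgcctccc
Myl3, chr8:119616844-119617143, plus strand: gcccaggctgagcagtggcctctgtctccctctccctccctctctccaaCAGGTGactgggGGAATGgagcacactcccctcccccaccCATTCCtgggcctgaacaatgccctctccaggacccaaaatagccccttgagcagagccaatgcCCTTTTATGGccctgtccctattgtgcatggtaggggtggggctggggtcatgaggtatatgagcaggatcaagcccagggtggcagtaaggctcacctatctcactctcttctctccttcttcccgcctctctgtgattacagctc
Mb, chr7:110647693-110647992, minus strand: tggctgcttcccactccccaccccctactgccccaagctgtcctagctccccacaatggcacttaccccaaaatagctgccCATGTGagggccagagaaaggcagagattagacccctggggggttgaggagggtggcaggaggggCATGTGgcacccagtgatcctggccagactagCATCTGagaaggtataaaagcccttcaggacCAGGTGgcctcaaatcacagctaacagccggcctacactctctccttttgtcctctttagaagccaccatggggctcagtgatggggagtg
Tnnt1 and Tnni1 each held 3 E boxes and Mb held 4, while Myl3 held 1 E box, 2 MCAT elements and 1 CArG box. An E box occurs in 72.1% of all 33469 windows in the table, MCAT in 14.2%, the MEF2 motif in 3.29% and the CArG box in 1.64%. No MEF2 match was found in these 4 windows, which says only that these letters are not in them. For Tpm3 the table gave 3 windows, the first 6482 bases upstream of the second. The start site of the Myh7 window lay 1657 bases downstream of the gene's outermost annotated start, and the window is not printed.

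The fast counterparts of the slow genes lay somewhat below 0 with the authors' scaling and near 0 with quantile normalization. The 3 fast troponin genes were bright, with Tnnc2 at 9363 in the stimulated and 12296 in the control limb, Tnni2 at 11352 and 14996, and Tnnt3 at 9899 and 13214. Their log2 ratios were -0.39, -0.40 and -0.42 with the authors' scaling, but 0.042, 0.031 and 0 with quantile normalization. A dimmer Tnnt3 probe set went the other way, at 388 against 313, 1.24-fold higher. Of 15 measured fast-fibre genes, 14 lay below 0 and 0 were past 2-fold in either direction. With quantile normalization 11 lay below 0 and 3 above, and the list median went from -0.42 to -0.045. The exception was Myh2, the heavy chain of fast oxidative (IIa) fibres, at 2010.2 against 1008, just under 2-fold higher. Myh4, that of the fastest (IIb) fibres, was at 7056 against 9454, and Myh1, that of IIx fibres, at 2825 against 2867. Of the 4 adult heavy chains, those of Myh7 and Myh2 were thus higher in the stimulated limb, and that of Myh1 lay within the probe set SD of 0.

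Within the same pair of arrays, each slow gene was set against its fast counterpart. The difference of the log2 ratios was 3.28 for Tnnc1 and Tnnc2 (9.69-fold), 2.57 for Tnni1 and Tnni2 (5.93-fold), at least 2.47 for Tnnt1 and Tnnt3 (5.55-fold) and at least 2.02 for Myh7 and Myh4 (4.07-fold). It was smaller for the tropomyosins Tpm3 and Tpm1, at 0.81, and for the essential light chains Myl3 and Myl1, at 0.56. All 6 pairs measured had the slow gene above the fast one, and 4 did so by over 2-fold. Of the fast heavy chains only Myh4 was paired with Myh7, whereas Myh2 was itself just under 2-fold higher (2010.2 against 1008). Tpm3 stands here as its brightest probe set, while 6 of its 10 measured ones lay below 0. The SD of such a difference between probe sets is 0.44. With quantile normalization the 2 smaller differences were 0.34 and 0.14, and those of the troponin pairs, in the order above, 2.88, 2.17 and 2.08. That of the tropomyosins was 0.034 without probe sets open to several transcripts. That of Tnnt1 and Tnnt3 was 0.52, no longer past 2-fold, with the floor at the 75th percentile. With the median over probe sets it was 2.11. That of Myh7 and Myh4 was 1.32 with the median over probe sets. Mylpf, the fast partner of Myl2, was not analysed here.

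**Figure D3:**
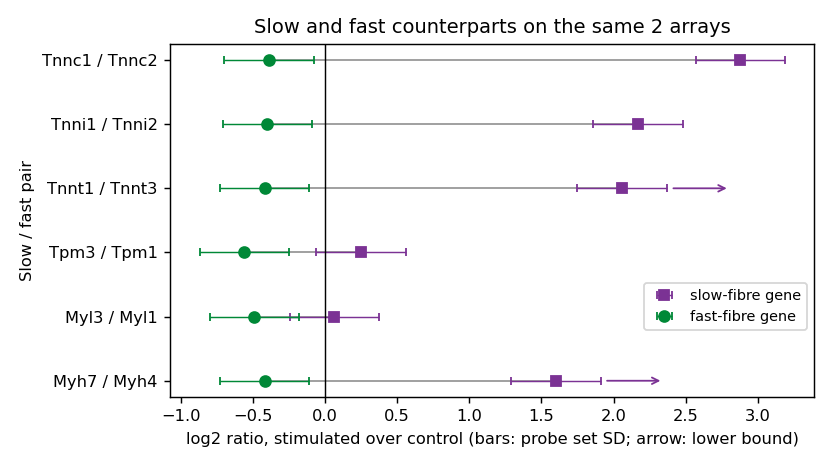
Log2 ratio of stimulated over control for each slow gene (squares) and its fast counterpart (circles), as reported with the authors' scaling; bars are the probe set SD of 0.31 and arrows mark lower bounds. The fast genes lie between -0.56 and -0.39, near 0 with quantile normalization, whereas the slow genes spread from 0.064 for Myl3 to 2.88 for Tnnc1.

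Other genes listed for slow or oxidative fibres were mostly higher as well. Of 18 such genes, 13 were measured, of which 12 lay above 0. A difference of 2-fold or more was seen for 6 that were higher and 0 that were lower, against 1.43% of all genes in each direction. The median log2 ratio was 0.89. Sln (sarcolipin, an inhibitor of the calcium pump) gave 191 against 37.0, and Myoz2 (calsarcin-1, a slow-fibre Z-disc protein that binds calcineurin) 593 against 213. Casq2, the calcium store protein of slow and cardiac muscle, gave 272 against 111 on 1 probe set and 137 against 59.7 on the other, 2.45-fold and 2.30-fold higher. The others past 2-fold were Csrp3 (5.81-fold), Hspb7 (3.37-fold, with a second probe set at 1.56-fold) and Ankrd2 (3.35-fold), which also respond to stretch or stress. The slow calcium pump gene Atp2a2 was at 276 against 149, 1.85-fold higher, with other probe sets at 1.30-fold and 1.22-fold. The 1 gene below 0 was Pdlim1, at 226 against 277. Those above 0 include Myl12a (3719 against 3056), a light chain that is not particular to slow fibres. They also include Pln, at 47.5 against 29.8 on its brightest probe set, while another was 1.46-fold lower. The list, like the 9 genes, was drawn up with earlier results of these data known.

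Sarcomere genes in a list not chosen for slow fibres stayed within 2-fold. The list overlaps those above, since Tpm1, Tpm2 and Mybpc2 are also in the fast list and Lmod2 is in the other slow list. None of the 18 measured went past 2-fold, and the median log2 ratio was -0.19. Titin (Ttn) gave 3547 against 3316, nebulin (Neb) 3014 against 2904 and skeletal actin (Acta1) 12095 against 16712. Furthest from 0 were Lmod2 at 0.85 (264 against 147), Tpm1 at -0.56 and Myom1 at -0.52 (525 against 751). Of the developmental and cardiac forms, the embryonic and perinatal heavy chains Myh3 and Myh8 and the cardiac troponins Tnnt2 and Tnni3 were under the floor on both arrays. Myl4, the embryonic and atrial light chain, was at 266 against 157, 1.70-fold higher.

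Genes known to control the slow programme were mostly near 0. Calcineurin and NFAT carry the calcium signal of slow motor nerve activity, PGC-1alpha drives oxidative genes, and Sox6 represses slow genes in fast fibres. Of 28 such genes, 25 were measured, with 1 past 2-fold on the higher side, 0 on the lower side and a median log2 ratio of -0.017, and 15 lay within the probe set SD of 0. The 1 was Rcan1, a calcineurin inhibitor that is itself a calcineurin-NFAT target, at 875 against 359.7, 2.43-fold higher. Nfatc4 was just under 2-fold higher at 45.7 against 23.3, close to the floor. Hdac5 was at 127 against 80.1, 1.59-fold higher, with a dimmer probe set 1.62-fold lower. Esrrg was 1.42-fold higher on its brightest probe set and 1.48-fold on the other. Sox6 gave 152 against 207, 1.36-fold lower, with a second probe set 1.63-fold lower. The calcineurin subunit gene Ppp3r1 was at 656 against 766 on its brightest probe set, while another was 2.20-fold lower. Ppargc1a, which encodes PGC-1alpha, was at 72.1 against 80.4, and Mef2c at 3274 against 3313. The catalytic calcineurin subunit gene Ppp3ca was at 1219 against 1421. Prox1 lay under the floor on both arrays.

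**Figure D4:**
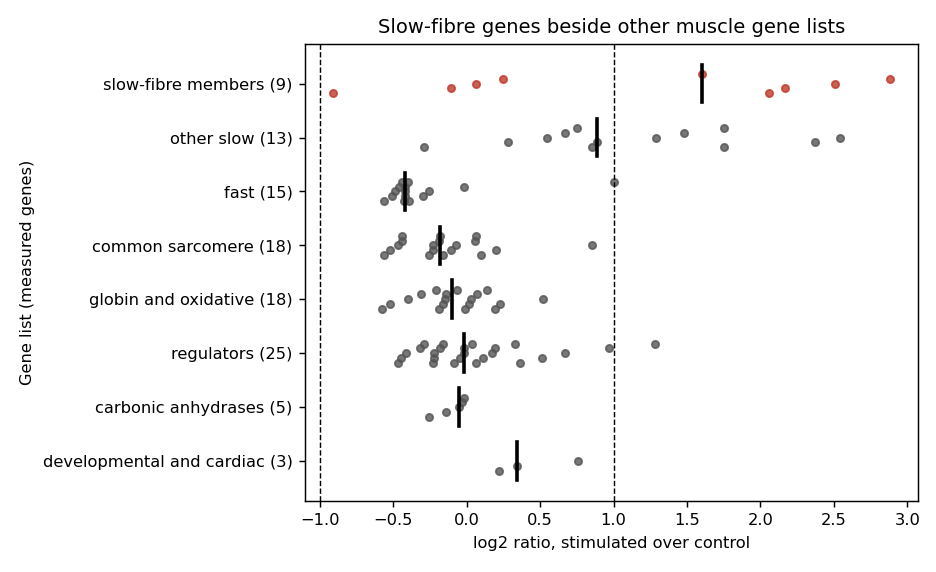
Log2 ratio of stimulated over control (authors' scaling) of each measured gene in 8 muscle gene lists, with the number of measured genes in brackets, the list median as a thick bar and 2-fold as dashed lines; the vertical offset of points carries no value. The 9 slow-fibre genes (median 1.60) and the other slow genes (0.89) reach furthest to the right, while the fast list centres on -0.42, which becomes -0.045 with quantile normalization.

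With 2 arrays, likeness between genes can only mean closeness of this 1 ratio. Among 8943 plainly named genes that reached the floor in both limbs, ordered by log2 ratio, Tnnc1 was the third. Above it stood Gpnmb, a glycoprotein of phagocytes (16.9-fold), and Thbs4, a matrix protein of tendon and muscle (7.84-fold). Just below it came Chrnd, an acetylcholine receptor subunit gene (7.18-fold), Tnmd, a tendon cell marker (6.69-fold), and Fmod, a collagen-binding proteoglycan of tendon (6.58-fold). Of 5 measured tendon markers, 3 were higher by 2-fold or more and 0 lower by as much, against 1.43% of all genes in each direction. Scx was 1.76-fold higher, and Comp at least 1.54-fold, with a control signal of 7.85 under the floor. The summed signal of the list was 1436 against 322. Tendon markers were thus higher in the same sample as the slow troponins, and their part in the result was not tested.

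The 9 genes were followed through 8 other ways of processing. Tnnc1, Myl2 and Tnni1 were at least 2-fold higher under all 8, with log2 ratios of 1.60 to 3.27, 2.33 to 2.89 and 1.20 to 2.55. Tnnt1 passed 2-fold under 7, and was at 0.10 with the floor at the 75th percentile (76.5), just under its stimulated signal of 82.2. Myh7 passed under 6 of the 7 that measured it, from 0.90 with the median over probe sets to 3.38 with the floor at the 25th percentile. Car3 stayed below 0 under all 8, from -0.93 to -0.53, and Mb, Myl3 and Tpm3 stayed within 2-fold.

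**Figure D5:**
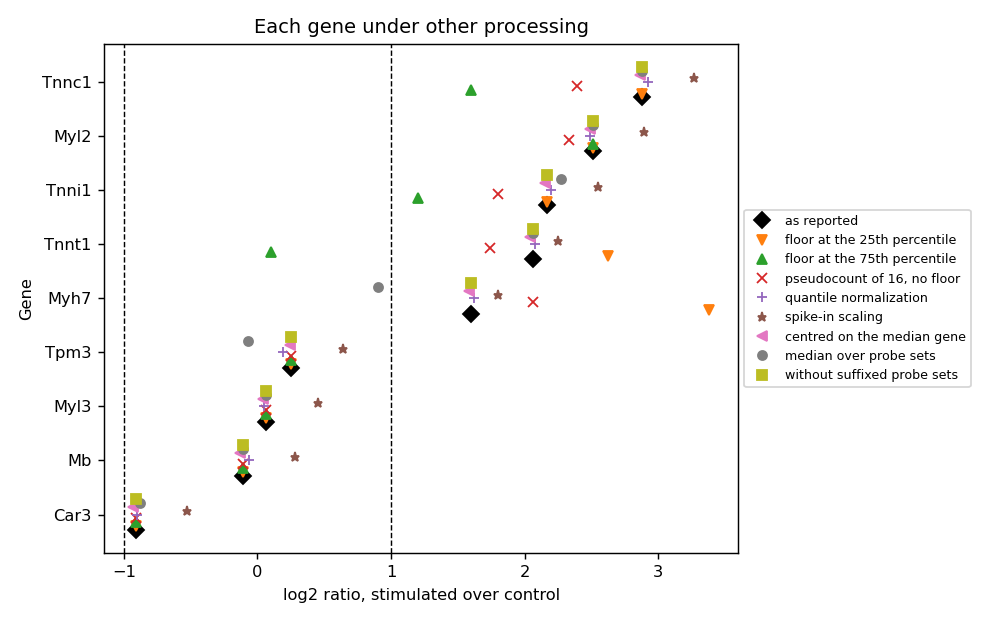
Log2 ratio of stimulated over control of each of the 9 genes as reported (black diamonds) and under the 8 other settings named in the key, with 2-fold as dashed lines. Tnnc1, Myl2 and Tnni1 stay to the right of the upper line throughout, Tnnt1 and Myh7 each cross it under 1 setting, and spike-in scaling moves most genes to the right together, as it moves the median gene to 0.39.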

How the data were processed

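Total RNA of 1 adductor muscle sample per limb was labelled with biotin and hybridised to 1 Affymetrix array each. The deposited table holds a linear signal intensity per probe set, computed by the authors in MAS5, per the submitters' processing notes. The sources used here do not give its version or scaling target. Both deposited columns had a trimmed mean of 76.5 (2% removed from either end). Of 31099 probe sets, 57 controls were left out. Names came from the platform annotation: 20832 probe sets had 1 symbol, 436 several and 9780 of the non-control ones none. Symbols of all 9 members were unchanged in RefSeq's GRCr8 table. Signals were used as scaled by the authors. The floor was the 50th percentile (19.8), which left 16644 measured probe sets and 9956 genes, each gene standing as its probe set of highest mean log2 signal. The log2 ratio is stimulated over control, counted at 2-fold with no test. The number of arrays limits the precision. At or above the floor were 48.9% of the stimulated sample's probe sets and 51.1% of the control's, and the 3'-to-5' signal ratio of beta-actin was 2.43 and 2.26.

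The members and lists were chosen with earlier results of these data known. The plan was to name all members, list genes past 2-fold, up to 4 of largest ratio per list, the fast counterparts and the genes nearest to Tnnc1. The text does not name every such list gene. Past 2-fold but left out of the sections above were Lgals3, Tyrobp, Cd53, Ptprc and Cd68 (higher), and Cidec and Mbp (lower). Not every gene of largest ratio is named either. Other list genes in the text were chosen after their values were seen. Alternatives changed the floor (25th or 75th percentile, or a pseudocount of 16), the scaling (quantile, spike-in, median gene) and the choice of probe sets. The counting was tested on simulated data, with differences planted only in genes whose mean signal lay well above the floor. It does not cover genes near the floor, such as Tnnt1 and Myh7. Python 3.11.15, numpy 2.4.6 and pandas 2.3.3 were used.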

Additional observations from a re-analysis of the deposited data

Results flagged for a closer look

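A pair of probe sets annotated to both Myh7 and Myh6, the slow and the cardiac alpha heavy chain, were not part of the comparisons because they name several genes. On 1 of them, 1398248_s_at, the stimulated sample gave a signal of 32.2 and the control sample 3.20, at least 1.63-fold higher. The other, 1396165_at, lay under the floor on both arrays, at 0.843 and 3.44.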

How the results depend on the processing

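The number of the 9 genes at least 2-fold higher was 5 as reported, 4 with the median over probe sets and 3 with the floor at the 75th percentile, which left Myh7 unmeasured and Tnnt1 at 0.10; it was 5 under the other 6 alternatives. Their median log2 ratio was 1.60 as reported, 2.17 with the floor at the 25th percentile, 0.18 at the 75th and 0.90 with the median over probe sets, and 1.58 to 1.80 under the other 5. With the floor at the 75th percentile (76.5), the stimulated signal of Myh7 (60.0) and the control signals of Tnnc1 (31.4), Tnni1 (39.3) and Tnnt1 (13.3) all lie under it. Spike-in scaling gave 535 genes higher and 44 lower in place of 142 and 142. For Tnnt1, Myh7 and the Tpm3 probe set 1376929_at, the low control signal leaves only a bound. No paired analysis was possible because each group has 1 sample.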
